A study of Homo sapiens with 12 samples.

Results

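The nuclear-encoded genes of the mitochondrial respiratory chain were followed while human embryonic stem (ES) cells differentiated in embryoid bodies (EBs), floating aggregates in which ES cells form many cell types at once. The genes were taken by name: every symbol on the array that began with NDUF, SDHA, SDHB, SDHC, SDHD, UQCR, ATP5 or COX and a digit, with pseudogenes left out. The array named 95 such genes, and 84 had a probe detected above background (detection p under 0.01) on at least 4 of the 12 arrays. These 84 were among 10562 genes tested. They comprised 28 of 33 named subunits of complex I, 3 of 3 of complex II, 7 of 7 of complex III, 12 of 16 of complex IV, 15 of 16 of complex V, and 19 of 20 assembly factors and regulators.

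The cells were SNUhES3, an established human ES cell line, measured on 12 one-colour bead arrays that report transcript levels. There were 4 arrays of undifferentiated ES cells, grown on mouse STO feeder cells that had been stopped from dividing, in DMEM/F12 with 20% KnockOut serum replacement and 4 ng/ml basic FGF. There were 4 arrays of EBs after 1 week and 4 of EBs after 2 weeks, kept floating in bacterial dishes in the same medium without basic FGF. ES cells and EBs thus differed at once in feeder cells, basic FGF, floating growth and time, which cannot be told apart. The part of mouse feeder RNA in the ES arrays was not tested. All groups came from this 1 line, separate cultures behind the 4 arrays of a group are not stated, and p-values therefore measure a spread between arrays that may be technical. In such mixed aggregates, fewer cells of a type and less RNA per cell cannot be told apart.

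The respiratory chain passes electrons from NADH and succinate to oxygen through complexes I to IV in the inner mitochondrial membrane, and the proton gradient this builds drives complex V, the ATP synthase. Nearly all subunits are encoded in the nucleus, and a core set comes from mitochondrial DNA. Pluripotent stem cells are known to rely strongly on glycolysis, and many differentiated tissues, heart and liver among them, on oxidative phosphorylation. No gene encoded by mitochondrial DNA was named on the array, so the values below concern the nuclear share alone.

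The arrays had mean probe signals of 718 to 1092 and detected 14045 to 15905 of 48803 probes each, and their number limits the precision. All 9 pluripotency markers measured were detected in the ES cells, among them POU5F1 and NANOG. By 2 weeks, 7 of these 9 were lower, 10 of 10 measured liver and yolk sac markers and 9 of 10 mesenchyme markers were higher, and of 6 measured cardiomyocyte markers 4 were higher, TNNI3 was lower (-1.62) and ACTN2 did not pass, while MYH6, MYH7, MYL2 and MYL3 were not detected on 4 or more arrays. The ES arrays and the 1-week arrays fell into pairs, 1 with 2 and 3 with 4 (correlation across genes of at least 0.997), and the array combinations between these pairs gave 0.987 to 0.992. The second 2-week array had the lowest mean signal, 718. On that array 6 members (NDUFA12, NDUFB2, NDUFB6, NDUFV1, ATP5F1B and NDUFAF3) lay more than 0.3 log2 units under the other 3 arrays of the group, as did 5.92% of all genes. Levels are given as normalized log2 intensity, on which 1 unit is a 2-fold difference, and a probe's level is set only against its own level in other samples.

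Respiratory chain transcripts were present in every group and moved little. Of the 84 members, 81 were detected on all 12 arrays. After 2 weeks, 78 of 84 members (92.9%) lay within 0.5 log2 units of their ES level, against 64.7% of all genes tested. After 1 week the count was again 78 (92.9%), against 74% of all genes. From the first to the second week it was 83 (98.8%), against 90.5% of genes. The median absolute difference of the members was 0.19 at 2 weeks and 0.14 at 1 week, against 0.34 and 0.27 over all genes. The highest member signal of an array was 31380 to 58290, where the highest signal of any probe was 60350 to 67650. No set of genes matched for level was compared, and the part of brightness in these small differences was not tested. The spread between arrays was similar in members and in all genes, with a median SD of 0.10 and 0.13 in ES cells, 0.09 and 0.10 at 1 week, and 0.10 and 0.12 at 2 weeks.

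**Figure D1:**
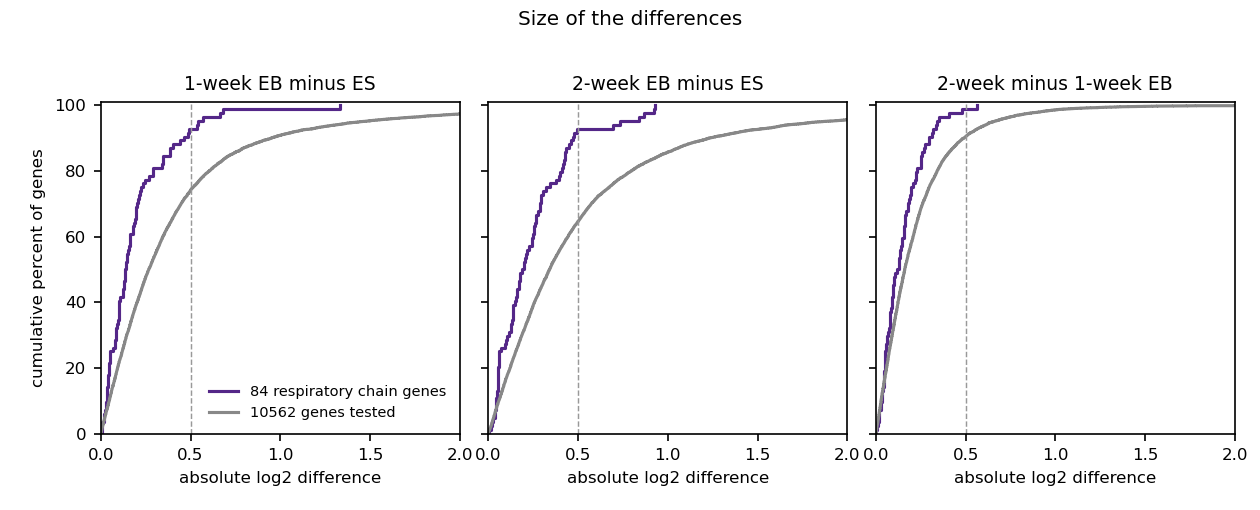
Cumulative percent of genes (vertical axis) whose absolute log2 difference is at or below the value on the horizontal axis, for the 84 respiratory chain genes and for all 10562 genes tested, in 3 comparisons. The dashed line marks 0.5, below which lay 78 members at 1 week, 78 at 2 weeks and 83 between the weeks. The axis ends at 2, beyond which only genes outside the set lie.

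In 2-week EBs compared with ES cells, 9 members (10.7%) were higher at an adjusted p under 0.05 and 27 (32.1%) were lower, while 48 did not pass. Over all genes tested, 30.7% were higher and 31.8% were lower. The share of members that were lower was thus close to that of all genes, and the share that were higher was smaller. In 1-week EBs, 2 members (2.38%) were higher and 26 (31%) were lower, against 27.1% and 24.8% of all genes. Both comparisons share the ES arrays. Without a test, 26 members (31%) had all 4 of their 2-week arrays under all 4 ES arrays and 6 (7.14%) had them above, against 28.1% and 27.5% of all genes. In the same way 28 (33.3%) had all 1-week arrays under all ES arrays and 2 (2.38%) above, against 23.1% and 25.4% of all genes. The median log2 difference of the members was -0.08 at 2 weeks and -0.08 at 1 week, against -0.02 and 0.01 over all genes. No member reached a 2-fold difference at 2 weeks, where 8.27% of all genes were at least 2-fold higher and 6.02% at least 2-fold lower.

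These counts moved with the scaling of the arrays. With arrays scaled to equal medians in place of equal distributions, 2 members were higher and 31 lower at 2 weeks. Of the called members 6.06% were then higher, against 25% before. At 1 week 2 were higher and 13 lower. Of all genes, 27.2% were higher and 25.4% lower at 2 weeks under this scaling, and 31.1% and 13% at 1 week. The share of members that were lower was thus above that of all genes at 2 weeks. The members' 2-week median was -0.22, against 0.0005 over all genes. That scaling put the median of all genes at 1 week at 0.13, against 0.01 before, and the members' median relative to it was -0.20, against -0.09 before. In the authors' processed series matrix 5 members were higher and 10 lower at 2 weeks, and 0 and 12 at 1 week. Of all genes, 22.8% were higher and 17.7% lower there at 2 weeks, and 14.1% and 11.4% at 1 week. One column of that matrix stood apart: 2-week array 2 correlated at 0.938 with its own log2 signal, against at least 0.998 in the other columns, and 10 members lay more than 1 log2 unit under the other 2-week arrays there, as did 16.5% of all genes. This column was then left out of the matrix, a choice made after seeing the data. That gave 9 members higher and 24 lower at 2 weeks, and 4 and 22 at 1 week. The shares of all genes were 28.1% and 28.3% at 2 weeks, and 25.2% and 23.5% at 1 week. Averaging arrays 1 with 2 and 3 with 4 of each group leaves 2 values per group. It gave 3 members higher and 15 lower at 2 weeks, and 0 and 9 at 1 week. The shares of all genes were 21.4% and 21.1% at 2 weeks, and 16.1% and 13.4% at 1 week. Of the 27 members lower at 2 weeks, 10 were called lower both with equal medians and in the whole series matrix: NDUFB10, NDUFS8, NDUFV2, UQCRC1, ATP5F1D, ATP5MC1, NDUFAF7, SDHAF3, SDHAF4 and COX10. Of the 9 that were higher, ATP5MJ and COX11 were. COX11 was detected on 1 of 4 ES arrays and on 4 of 4 in each EB group, so it entered the set through the EBs. Its calls under these scalings all use ES values mostly without detection and are no independent support. In the matrix without 2-week array 2, 21 of the 27 and 8 of the 9 were called.

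**Figure D2:**
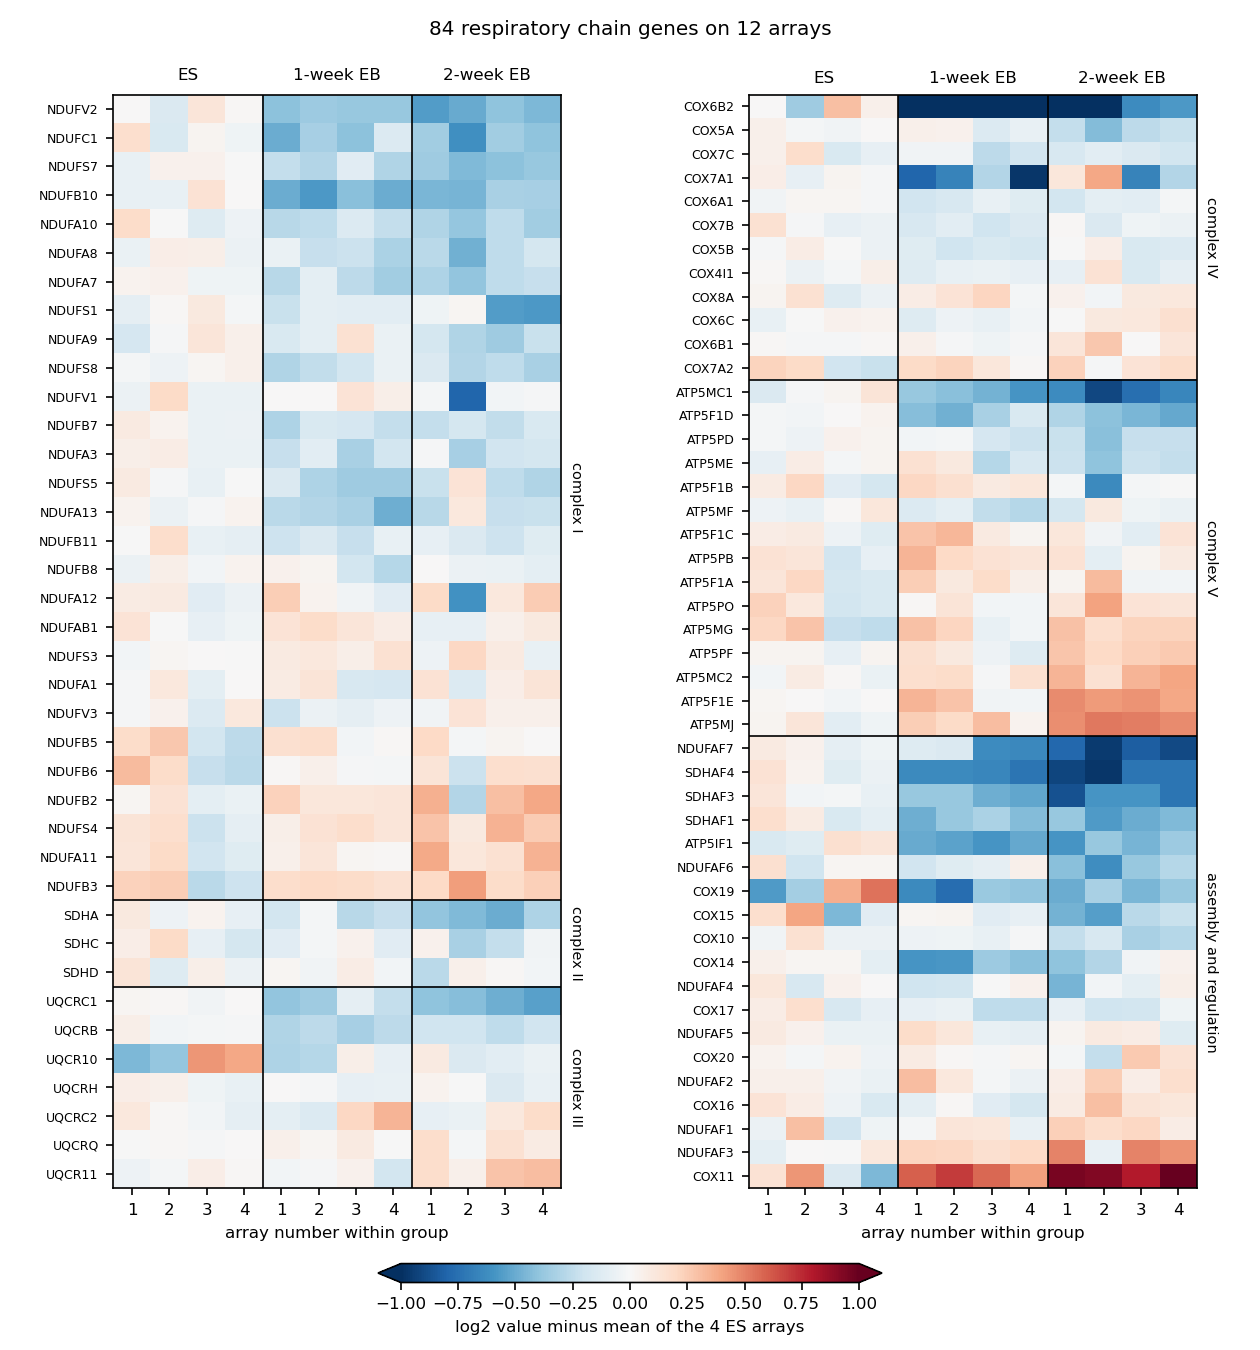
Each row is 1 of the 84 members and each column 1 array, in the order ES, 1-week EB, 2-week EB; colour gives the log2 value minus the mean of the 4 ES arrays, and rows are ordered within a complex by their 2-week difference. Most rows stay pale, SDHAF1, SDHAF3, SDHAF4 and NDUFAF7 are blue on all 8 EB arrays, and COX11 is red on all 8.

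Complex I takes electrons from NADH, and its peripheral arm holds the redox core through which they pass. Of 28 members measured, 10 were lower (35.7%) and 2 higher (7.14%) at 2 weeks, against 31.8% and 30.7% of all genes. At 1 week 12 were lower (42.9%) and 0 higher, against 24.8% and 27.1% of all genes. The median log2 differences of the complex were -0.16 at 2 weeks and -0.12 at 1 week. Of the 6 redox core subunits, NDUFV2, NDUFS7 and NDUFS8 fell at both times and NDUFS1, NDUFS3 and NDUFV1 did not pass at either. At 2 weeks the 28 differences lay between -0.48 and 0.26.

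NDUFV2, a flavoprotein subunit with an iron-sulfur cluster, was at 13.26, 13.11, 13.37 and 13.27 in ES cells, at 12.84, 12.89, 12.87 and 12.87 in 1-week EBs, and at 12.69, 12.75, 12.85 and 12.80 in 2-week EBs. No EB array reached the lowest ES array. The difference from ES cells was -0.48 (SE 0.069, adjusted p = 3.81e-05) at 2 weeks and -0.38 (SE 0.069, adjusted p = 0.000378) at 1 week. NDUFS7 and NDUFS8, which carry further clusters of the electron path, had 2-week differences of -0.40 (adjusted p = 0.000106) and -0.25 (adjusted p = 0.00616). NDUFV1, which binds NADH, was at 11.41, 10.64, 11.40 and 11.42 in 2-week EBs, against 11.37, 11.62, 11.37 and 11.36 in ES cells. Its difference of -0.21 (SE 0.15, adjusted p = 0.221) came with 1 low array, the second 2-week one. NDUFS1, the subunit with the most clusters of the core, was at 9.31, 9.37, 8.80 and 8.77 in 2-week EBs and at 9.26, 9.37, 9.45 and 9.33 in ES cells. Its 2-week arrays split in pairs, with only arrays 3 and 4 under the ES range, and the difference of -0.29 did not pass (adjusted p = 0.0581).

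The accessory subunits surround the core and stabilise the complex. Of 22 measured, 7 fell and 2 rose at 2 weeks, against 31.8% and 30.7% of all genes. At 1 week 9 fell, against 24.8% of all genes. NDUFC1, a small membrane subunit, was at 10.59, 10.32, 10.59 and 10.53 in 2-week EBs and at 11.10, 10.78, 10.97 and 10.90 in ES cells, without overlap. It differed by -0.43 (SE 0.097, adjusted p = 0.00162). NDUFB10, of the distal membrane arm, was picked after its values were seen because it was called under every setting tried in both comparisons with ES cells. It lay at 12.85, 12.85, 12.98 and 12.97 in 2-week EBs and at 13.23, 13.23, 13.45 and 13.31 in ES cells. It differed by -0.39 (adjusted p = 0.000292) at 2 weeks and -0.49 (adjusted p = 6.09e-05) at 1 week. The rises were smaller and overlapped the ES arrays. NDUFA11, a membrane arm subunit, was at 12.94, 12.68, 12.72 and 12.91 in 2-week EBs and at 12.68, 12.76, 12.37 and 12.44 in ES cells (difference 0.25, adjusted p = 0.0346). NDUFS4, which stabilises the NADH-oxidising end, was at 13.07, 12.89, 13.14 and 13.04 in 2-week EBs and at 12.92, 12.96, 12.58 and 12.70 in ES cells (difference 0.24, adjusted p = 0.0293). With equal medians these 2 rises were 0.14 (adjusted p = 0.452) and 0.11 (adjusted p = 0.557), and in the series matrix that of NDUFS4 was 0.07 (adjusted p = 0.758), or 0.27 (adjusted p = 0.0263) without 2-week array 2. Both calls were lost when ES array 3, ES array 4, 2-week array 1 or 2-week array 4 was left out, and that of NDUFS4 also without 2-week array 3, with adjusted p-values of up to 0.113 for NDUFA11 and 0.1002 for NDUFS4.

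**Figure D3:**
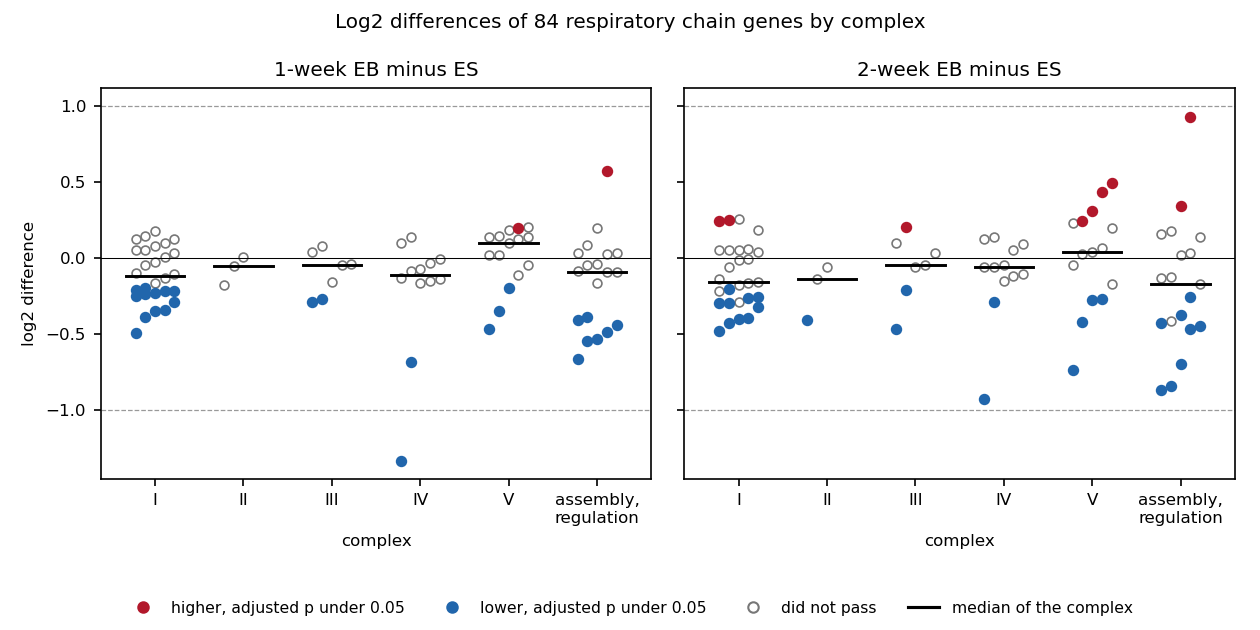
Log2 difference (vertical axis) of each of the 84 members by complex (horizontal axis), for 1-week EBs minus ES cells and 2-week EBs minus ES cells; filled points passed an adjusted p under 0.05, the black bar is the median of the complex, and the dashed lines mark a 2-fold difference. Only COX6B2 in complex IV lies beyond a dashed line, at -1.33 in 1-week EBs, and the called points of complex V lie on both sides of 0.

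Complex II, succinate dehydrogenase, passes electrons from succinate to ubiquinone and is also an enzyme of the citric acid cycle. Its flavin-carrying catalytic subunit SDHA fell, and the membrane anchors SDHC and SDHD did not pass. SDHB, the iron-sulfur subunit, was not among the genes the array named, so it was not measured. SDHA was at 10.94, 10.80, 10.88 and 10.76 in ES cells, at 10.66, 10.82, 10.57 and 10.62 in 1-week EBs, and at 10.45, 10.41, 10.35 and 10.54 in 2-week EBs. The 2-week arrays lay under all others, and the 1-week arrays overlapped the ES cells. The difference was -0.41 (SE 0.075, adjusted p = 0.000327) at 2 weeks and -0.18 (adjusted p = 0.0603) at 1 week, and -0.23 (adjusted p = 0.037) between the weeks. A second SDHA probe gave -0.49 and -0.10 against ES cells. SDHC and SDHD differed by -0.14 (SE 0.099, adjusted p = 0.2404) and -0.06 (SE 0.083, adjusted p = 0.571) at 2 weeks. In the series matrix the 2-week difference of SDHA was -0.22 and did not pass (adjusted p = 0.1595), but without 2-week array 2 it was -0.32 and passed (adjusted p = 0.00995). Its call between the weeks was lost without any of 1-week arrays 1, 2 and 4 and 2-week arrays 1, 2 and 3 (highest adjusted p = 0.115).

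The 3 measured assembly factors of complex II all fell at both times, against 31.8% of all genes at 2 weeks and 24.8% at 1 week. Of the 3, SDHAF1 and SDHAF3 were picked after their values were seen, and SDHAF4 by the rule given in the methods. SDHAF4, which helps the flavin-loaded SDHA join the complex, had the smallest adjusted p of all members at 2 weeks. It was at 9.88, 9.77, 9.61 and 9.68 in ES cells, at 9.09, 9.10, 9.08 and 9.0045 in 1-week EBs, and at 8.81, 8.76, 8.9999 and 8.9992 in 2-week EBs. Every EB array lay more than the ES range under the ES arrays, with differences of -0.84 (SE 0.079, adjusted p = 5.87e-07) at 2 weeks and -0.66 (SE 0.079, adjusted p = 1.02e-05) at 1 week. SDHAF3 and SDHAF1 act on the iron-sulfur subunit. SDHAF3 was at 12.15, 12.01, 12.01 and 11.96 in ES cells, at 11.66, 11.65, 11.55 and 11.51 in 1-week EBs, and at 11.16, 11.44, 11.44 and 11.31 in 2-week EBs. Its 3 groups did not overlap, and it differed from ES cells by -0.69 (adjusted p = 3.92e-06) at 2 weeks and by -0.44 (adjusted p = 0.000373) at 1 week. Its second probe gave -0.59 and -0.35. SDHAF1 was at 9.79, 9.60, 9.68 and 9.73 in 2-week EBs and at 10.34, 10.25, 10.02 and 10.07 in ES cells, without overlap. It differed by -0.47 (adjusted p = 0.000211) at 2 weeks and -0.40 (adjusted p = 0.000979) at 1 week, and its second probe by -0.32 and -0.29. SDHAF3 and SDHAF4 were called lower in both comparisons with ES cells under every setting tried; SDHAF1 did not pass with equal medians at 1 week (adjusted p = 0.135). In the series matrix SDHAF1 did not pass either (adjusted p = 0.0795 at 2 weeks and 0.552 at 1 week), where its second 2-week value was 7.81 and the other three were 9.72 to 9.85, and without that array it passed at both times (adjusted p = 0.00478 and 0.00624).

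The promoters of SDHA, SDHAF3 and SDHAF4, which fell, and of ATP5MJ, which rose, were picked after their values were seen and are shown because each holds the motif of NRF1, nuclear respiratory factor 1, a transcription factor known to bind many respiratory chain promoters. The windows are RefSeq sequences of GRCh38.p14, read 5′ to 3′ on the gene's strand from 250 bases before to 50 bases after its start, at chr5:218070-218369 (plus strand) for SDHA, chr7:97117448-97117747 (plus) for SDHAF3, chr6:70566680-70566979 (plus) for SDHAF4 and chr14:103921480-103921779 (minus) for ATP5MJ. Capitals mark matches on either strand to the NRF1 motif (GCGCAGGCGC with the sixth base free, in the direction read), CCGGAAG (GABPA, the other nuclear respiratory factor) and AAGATGG (YY1).
SDHA: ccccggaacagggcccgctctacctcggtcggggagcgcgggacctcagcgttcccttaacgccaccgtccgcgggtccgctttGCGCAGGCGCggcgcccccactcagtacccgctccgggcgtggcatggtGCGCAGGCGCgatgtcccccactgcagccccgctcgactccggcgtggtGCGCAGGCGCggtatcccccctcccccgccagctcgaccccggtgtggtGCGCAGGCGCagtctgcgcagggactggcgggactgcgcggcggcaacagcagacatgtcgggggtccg
SDHAF3: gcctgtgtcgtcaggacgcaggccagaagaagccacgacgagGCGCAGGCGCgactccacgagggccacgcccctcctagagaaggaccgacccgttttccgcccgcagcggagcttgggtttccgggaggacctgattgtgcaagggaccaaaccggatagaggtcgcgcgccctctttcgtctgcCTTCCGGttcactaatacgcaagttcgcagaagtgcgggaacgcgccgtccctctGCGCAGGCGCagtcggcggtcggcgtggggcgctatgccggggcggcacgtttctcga
SDHAF4: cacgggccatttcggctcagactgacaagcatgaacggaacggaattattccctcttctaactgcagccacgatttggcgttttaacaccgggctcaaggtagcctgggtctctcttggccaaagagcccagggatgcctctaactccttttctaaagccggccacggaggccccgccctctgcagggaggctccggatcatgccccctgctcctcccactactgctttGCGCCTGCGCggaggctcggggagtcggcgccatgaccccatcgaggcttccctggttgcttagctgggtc
ATP5MJ: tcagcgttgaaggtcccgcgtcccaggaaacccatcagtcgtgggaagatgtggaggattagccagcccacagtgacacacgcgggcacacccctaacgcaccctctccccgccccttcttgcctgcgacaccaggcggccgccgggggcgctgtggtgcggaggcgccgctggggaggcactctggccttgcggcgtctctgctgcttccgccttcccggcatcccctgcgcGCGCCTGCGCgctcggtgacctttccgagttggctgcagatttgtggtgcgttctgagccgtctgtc
The SDHA window held the NRF1 letters 4 times, each as the same 10-base run, the SDHAF3 window held them 2 times beside 1 GABPA match, and the other windows held them 1 time each. Promoter windows were matched for 73 of the 84 members. The NRF1 letters stood in 18 of them (24.7%), against 6.98% of the 27303 genes in the table, the GABPA letters in 25 (34.2%, against 12.2%) and the YY1 letters in 16 (21.9%, against 7.11%). The 27303 genes include many that were not measured here, so these shares do not compare the members with the 10562 genes tested. No marked run overlaps another in the windows printed. In complex IV, 0 of 10 windows held the NRF1 letters and 5 of 10 the GABPA letters. Members with and without the NRF1 letters had median differences of -0.09 and -0.06 at 2 weeks, those with and without the GABPA letters of -0.06 and -0.10, and those with and without the YY1 letters of -0.10 and -0.06. At 1 week these medians were -0.05 and -0.08 for NRF1, -0.04 and -0.10 for GABPA, and -0.04 and -0.09 for YY1, so the order for NRF1 and YY1 was the opposite of that at 2 weeks. A match is a description of the letters and no evidence of binding in these cells.

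Complex III passes electrons from ubiquinol to cytochrome c. Of its 7 members, UQCRB and UQCRC1 fell at both times and UQCR11 rose at 2 weeks. UQCR10, UQCRC2, UQCRH and UQCRQ did not pass in either comparison with ES cells. At 2 weeks the shares lower and higher were 28.6% and 14.3%, against 31.8% and 30.7% of all genes. At 1 week 28.6% were lower, against 24.8% of all genes. UQCRFS1 was not among the genes the array named, so it was not measured. UQCRC1, a core subunit, was at 12.63, 12.62, 12.57 and 12.62 in ES cells, at 12.22, 12.25, 12.52 and 12.38 in 1-week EBs, and at 12.21, 12.19, 12.12 and 12.07 in 2-week EBs. All EB arrays lay under all ES arrays, with differences of -0.46 (SE 0.073, adjusted p = 9.33e-05) at 2 weeks and -0.27 (adjusted p = 0.00743) at 1 week. UQCRB, a small subunit near the ubiquinone site, was at 11.06, 11.06, 11.004 and 11.06 in 2-week EBs, against 11.32, 11.23, 11.24 and 11.24 in ES cells. Its difference was -0.21 (adjusted p = 0.00547), its 1-week difference was -0.29 (adjusted p = 0.000782), and a dimmer probe of the gene gave 0.07 at 2 weeks and -0.12 at 1 week. With equal medians neither UQCRB difference passed (adjusted p = 0.101 and 0.254), nor did the 1-week difference of UQCRC1 (adjusted p = 0.101). UQCR11, another small subunit, was at 8.94, 8.82, 9.06 and 9.08 in 2-week EBs, against 8.72, 8.74, 8.83 and 8.78 in ES cells, with 1 array inside the ES range. It differed by 0.21 (adjusted p = 0.0297), and the call was lost without any of ES arrays 1, 2 and 4 and 2-week arrays 3 and 4 (highest adjusted p = 0.0884), and with equal medians (adjusted p = 0.0579). UQCRH, the hinge protein, lay between 14.93 and 15.15 on all 12 arrays and differed by -0.05 at 2 weeks (SE 0.065, adjusted p = 0.553) and by -0.04 at 1 week, while a dimmer probe of the gene gave -0.15 and -0.39, which were not tested. UQCR10 was not called by its brightest probe (difference -0.06 at 2 weeks), whereas the dimmest of its 3 probes gave 1.15 at 2 weeks and 1.11 at 1 week, so its direction depends on the probe.

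Complex IV, cytochrome c oxidase, hands the electrons to oxygen, and several of its nuclear subunits exist as paralogs, a common form and one typical of muscle, heart, lung or testis. Of 12 members measured, COX5A and COX6B2 fell at 2 weeks, COX6B2 and COX7A1 fell at 1 week, and none rose against ES cells. The share that fell was 16.7% at both times, against 31.8% of all genes at 2 weeks and 24.8% at 1 week. The common forms COX4I1, COX6A1, COX6B1, COX7A2, COX7B and COX8A did not pass in any comparison, with 2-week differences of -0.05, -0.10, 0.13, 0.14, -0.06 and 0.05 and standard errors of 0.061 to 0.11. Their paralogs COX4I2, COX6A2, COX7B2 and COX8C were not detected on any of the 12 arrays. COX5A, which joins the enzyme early in its assembly, was at 14.34, 14.28, 14.26 and 14.30 in ES cells, at 14.34, 14.34, 14.16 and 14.22 in 1-week EBs, and at 14.06, 13.87, 14.03 and 14.07 in 2-week EBs. Only the 2-week arrays stood apart, at -0.29 (SE 0.070, adjusted p = 0.00282) from ES cells and -0.26 (adjusted p = 0.0152) from 1-week EBs. Neither passed in the series matrix (adjusted p = 0.129 and 0.413), nor without 2-week array 2 (adjusted p = 0.0757 and 0.311).

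The paralogs COX6B2 and COX7A1 were near the detection limit. COX6B2, a form known from testis, was detected on 3 of 4 ES arrays, 0 of 4 1-week arrays and 1 of 4 2-week arrays, so it entered the set through the ES cells. It was at 7.43, 7.07, 7.73 and 7.48 in ES cells, at 6.17, 6.29, 5.92 and 5.996 in 1-week EBs, and at 6.16, 6.19, 6.80 and 6.85 in 2-week EBs. It was the only member called at a 2-fold difference, at 1 week, where 3.07% of all genes were at least 2-fold lower and 6.09% at least 2-fold higher. Its fitted difference was -1.33 (adjusted p = 2.42e-05), and against the detection floor it was at least 1.53-fold lower. At 2 weeks it differed by -0.93 (SE 0.17, adjusted p = 0.0004003). Both calls set the group that brought COX6B2 into the set against EB values mostly without detection. They are no independent support for a fall, and the sizes are uncertain. The ubiquitous paralog COX6B1 stayed at 13.73 to 14.05 on all 12 arrays. COX7A1, the heart and muscle form, was at 7.36, 7.20, 7.32 and 7.28 in ES cells, at 6.50, 6.62, 6.99 and 6.31 in 1-week EBs, and at 7.40, 7.68, 6.62 and 6.99 in 2-week EBs. It was detected on 4, 1 and 3 arrays of these groups. It differed from ES cells by -0.68 (SE 0.19, adjusted p = 0.00873) at 1 week and by -0.12 (adjusted p = 0.617) at 2 weeks. The difference of 0.57 (adjusted p = 0.0431) between the weeks lost its call without any of ES arrays 1, 3 and 4, 1-week arrays 1, 2 and 4 and 2-week arrays 1, 2 and 4 (highest adjusted p = 0.121). Of 11 skeletal muscle markers, 9 (among them MYOD1, MYOG, CKM and DES) were not detected on 4 or more arrays and 2 (ACTA1 and TNNC2) were lower at both times, with a mean level of 10.20 to 10.40 on the ES arrays, 9.46 to 9.86 at 1 week and 9.29 to 9.50 at 2 weeks. The mean level of the 6 cardiomyocyte markers measured, of 14, was 7.02 to 7.11 on the ES arrays, 8.84 to 8.96 at 1 week and 8.80 to 9.13 at 2 weeks. This mean was carried by SLN and MYL7, with 1-week differences of 7.05 and 3.51 fitted against levels not detected on any ES array, whereas TNNI3 was lower (-1.68) and ACTN2 did not pass (-0.08). Their part in the level of COX7A1 was not tested.

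Complex V, the ATP synthase, has a catalytic head and a stalk and membrane part with a rotating ring of c subunits. Of 15 members, 4 rose (26.7%) and 4 fell (26.7%) at 2 weeks, against 30.7% and 31.8% of all genes. At 1 week 1 rose (6.67%) and 3 fell (20%), against 27.1% and 24.8% of all genes. The median of the complex was 0.04 at 2 weeks and 0.10 at 1 week. With equal medians it was -0.14 and -0.07, so its sign turned with the scaling. The 2 large catalytic subunits did not pass. ATP5F1A was at 15.20, 15.48, 15.14 and 15.15 in 2-week EBs and at 15.29, 15.38, 14.997 and 15.02 in ES cells (difference 0.07, SE 0.10, adjusted p = 0.581). ATP5F1B was at 15.46, 14.83, 15.45 and 15.47 in 2-week EBs and at 15.55, 15.68, 15.36 and 15.30 in ES cells (difference -0.17, SE 0.13, adjusted p = 0.281), and its second 2-week array was low.

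Of the smaller head subunits, 1 fell and 1 rose. ATP5F1D, the delta subunit, was at 12.82, 12.71, 12.66 and 12.60 in 2-week EBs and at 13.10, 13.09, 13.12 and 13.16 in ES cells, without overlap. It differed by -0.42 (SE 0.078, adjusted p = 0.000374) at 2 weeks and by -0.35 (adjusted p = 0.00218) at 1 week. ATP5F1E, the epsilon subunit, was at 14.07, 14.05, 14.02 and 14.05 in ES cells, at 14.39, 14.34, 14.01 and 14.02 in 1-week EBs, and at 14.52, 14.47, 14.50 and 14.44 in 2-week EBs. Its 1-week arrays split in pairs, with arrays 1 and 2 above the ES range and arrays 3 and 4 at or under its lower end, while all 2-week arrays were above it. It differed by 0.43 (SE 0.087, adjusted p = 0.000669) at 2 weeks and by 0.14 (adjusted p = 0.196) at 1 week. With equal medians the 2-week rise was 0.21 and did not pass (adjusted p = 0.175).

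In the membrane part, the largest fall and the largest rise of complex V stood side by side. ATP5MC1 and ATP5MC2 are separate genes that encode the same mature c subunit with different targeting peptides. A further gene of this subunit, ATP5MC3, was not among the genes the array named, so it was not measured. ATP5MC1 was at 12.45, 12.58, 12.62 and 12.72 in ES cells, at 12.22, 12.18, 12.12 and 12.004 in 1-week EBs, and at 11.97, 11.68, 11.84 and 11.94 in 2-week EBs. Its 3 groups did not overlap and followed each other downwards. It differed from ES cells by -0.74 (SE 0.084, adjusted p = 4.39e-06) at 2 weeks and by -0.46 (SE 0.084, adjusted p = 0.000428) at 1 week, and its second probe gave -0.78 and -0.43. ATP5MC2 was at 14.03, 13.84, 14.03 and 14.09 in 2-week EBs and at 13.66, 13.78, 13.70 and 13.63 in ES cells. It differed by 0.31 (SE 0.074, adjusted p = 0.00263), but a dimmer probe gave -0.01, and the value with equal medians was 0.14 (adjusted p = 0.385). In the series matrix it was -0.48 (adjusted p = 0.53), where the second 2-week value was 10.80 and the other three were 13.98 to 14.04. Without that array the matrix gave 0.32 (adjusted p = 0.00483). ATP5MJ, a small membrane subunit, was at 10.55, 10.64, 10.42 and 10.48 in ES cells, at 10.77, 10.72, 10.83 and 10.56 in 1-week EBs, and at 10.99, 11.05, 11.04 and 10.99 in 2-week EBs. It differed by 0.49 (SE 0.074, adjusted p = 5.97e-05) at 2 weeks, when all arrays were above the ES range, and by 0.20 (adjusted p = 0.0407) at 1 week, and it was called higher at 2 weeks under every setting tried. The 1-week call was lost without any of ES arrays 1, 3 and 4, 1-week arrays 1, 2 and 3 and 2-week arrays 3 and 4 (highest adjusted p = 0.117).

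**Figure D4:**
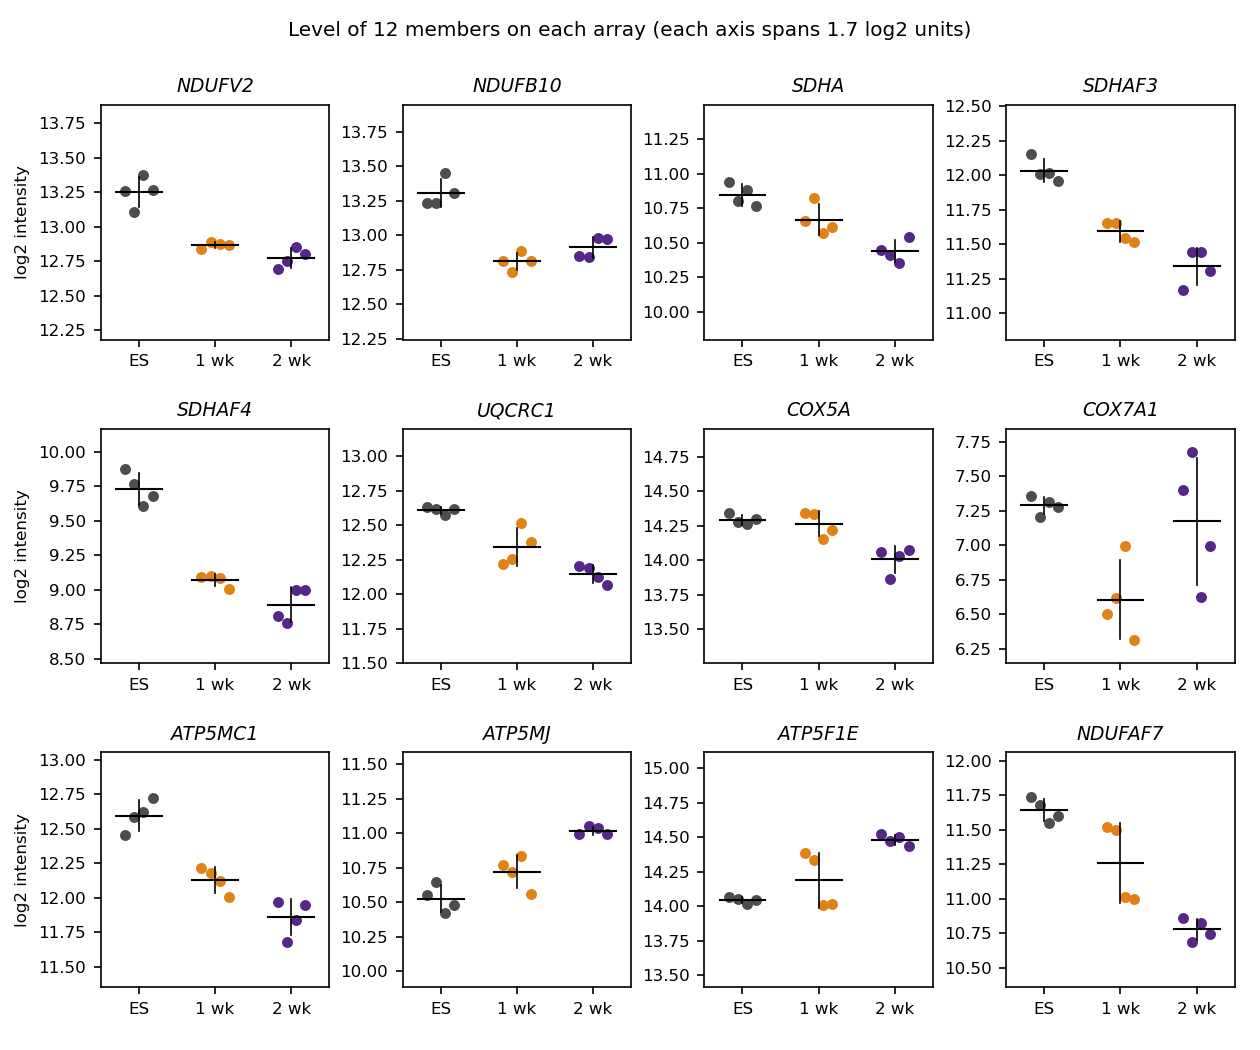
Normalized log2 intensity (vertical axis) of 12 members on each array of ES cells, 1-week EBs and 2-week EBs (horizontal axis); points are arrays, the long bar is the group mean and the thin bar 1 SD on each side (n = 4). ATP5MC1 and SDHAF3 step down at both times without overlap, ATP5MJ and ATP5F1E are highest in 2-week EBs, COX7A1 is lowest in 1-week EBs, and NDUFAF7 and ATP5F1E split in pairs in 1-week EBs.

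By fitted value, assembly factors and regulators held the largest rise at 2 weeks, of COX11, which was mostly undetected in ES cells. After COX6B2, they also held the largest falls, of NDUFAF7 and SDHAF4. Of 19 measured, 8 fell (42.1%) and 2 rose (10.5%) at 2 weeks, against 31.8% and 30.7% of all genes. At 1 week 7 fell (36.8%) and 1 rose (5.26%), against 24.8% and 27.1% of all genes. The median differences of the 19 were -0.17 at 2 weeks and -0.09 at 1 week. NDUFAF7, a methyltransferase of complex I assembly that acts on a core subunit, was at 11.74, 11.68, 11.55 and 11.60 in ES cells, at 11.52, 11.50, 11.01 and 10.998 in 1-week EBs, and at 10.86, 10.69, 10.82 and 10.74 in 2-week EBs. It differed by -0.86 (SE 0.12, adjusted p = 2.2e-05) at 2 weeks, and its other probes gave -0.97 and -1.15. The 1-week difference of -0.39 (adjusted p = 0.0136) came from arrays in pairs, 1 and 2 just under the ES range and 3 and 4 well under it, and with equal medians it did not pass (adjusted p = 0.177). NDUFAF3, another complex I factor, was at 11.89, 11.33, 11.90 and 11.85 in 2-week EBs and at 11.30, 11.40, 11.39 and 11.50 in ES cells (difference 0.34, SE 0.11, adjusted p = 0.0162). Its second 2-week array lay within the ES range, and in the series matrix, where that array was at 9.31 and the other three at 11.78 to 11.94, the difference was -0.17 (adjusted p = 0.788). Without that array the matrix gave 0.47 (adjusted p = 0.000533). The call was lost without 2-week array 1 or 3 (highest adjusted p = 0.0531).

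COX11, which delivers copper to complex IV, was at 6.96, 7.26, 6.67 and 6.36 in ES cells, at 7.41, 7.51, 7.39 and 7.22 in 1-week EBs, and at 7.76, 7.74, 7.61 and 7.85 in 2-week EBs. It was detected on 1 of 4 ES arrays and on all 8 EB arrays, and so entered the set through the EBs. The fitted difference was 0.92 (SE 0.15, adjusted p = 0.000108) at 2 weeks and 0.57 (adjusted p = 0.00565) at 1 week, and with equal medians 1.04 at 2 weeks. On ES arrays 1, 3 and 4 it lay under the lowest detected signal of the array (7.09, 7.04 and 7.05). These sizes therefore rest on ES values mostly without detection and are uncertain. The 1-week difference did not pass in the series matrix (adjusted p = 0.0774), but it passed in the fit without 2-week array 2 (adjusted p = 0.0109). None of the other 7 complex IV factors measured rose against ES cells. COX10 and COX15, which make heme A, had 2-week differences of -0.25 (adjusted p = 0.00542) and -0.38 (adjusted p = 0.0368), and COX17, a copper chaperone, of -0.13 and did not pass (adjusted p = 0.206). The COX15 call was lost without any of ES arrays 1 and 2 and 2-week arrays 1 and 2 (highest adjusted p = 0.116). ATP5IF1, the inhibitor of ATP hydrolysis by complex V, was at 11.11, 11.32, 11.23 and 11.33 in 2-week EBs and at 11.54, 11.57, 11.85 and 11.81 in ES cells (difference -0.45, adjusted p = 0.000395), and a dimmer probe gave 0.22. COX10, COX15, COX17 and ATP5IF1 were picked after their values were seen.

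From the first to the second week of EB culture, 7 members (8.33%) rose and 7 (8.33%) fell, against 12.4% and 14.1% of all genes. UQCR11, COX7A1, ATP5F1E, ATP5MJ, ATP5PF, COX14 and COX16 rose, and SDHA, COX5A, ATP5MC1, NDUFAF6, NDUFAF7, SDHAF3 and COX10 fell. The largest of these differences were 0.57 for COX7A1 and -0.48 for NDUFAF7 (adjusted p = 0.00857), and no member was called at 2-fold, as 0.881% of all genes were in the higher and 0.502% in the lower direction. Without a test, 15 members (17.9%) had all 2-week arrays under all 1-week arrays and 9 (10.7%) above, against 17.1% and 14.8% of all genes. None of the 14 was called both with equal medians and in the whole series matrix. With equal medians 1 member was higher and 7 lower (12.5% of the called members higher, against 50% before). The shares of all genes were then 4.57% and 14%. In the series matrix 1 member was higher and 0 lower, against 4.88% and 2.5% of all genes. Without 2-week array 2 the matrix gave 4 and 3, against 8.83% and 9.74% of all genes. With array pairs averaged no member was called in this comparison (0 higher and 0 lower), against 2.56% and 2.96% of all genes. The equal-median scaling put the median of all genes at -0.12 in this comparison, against -0.01 before.

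Genes outside the name rule that serve the same pathway were counted on lists. Of 17 measured regulators of mitochondrial biogenesis, 12 fell and 0 rose at 2 weeks (median -0.41), and 7 fell and 0 rose at 1 week (median -0.35), where 31.8% of all genes were lower and 30.7% higher at 2 weeks and 24.8% and 27.1% at 1 week. Under equal medians 8 and 5 fell, in the series matrix 5 and 4, and none rose in either. Of all genes, 25.4% and 13% were lower under equal medians, and 17.7% and 11.4% in the series matrix. With 2-week array 2 left out of the series matrix, 11 and 7 fell, and TFAM was called higher at 1 week. In that fit 28.3% and 23.5% of all genes were lower. For MYC and YY1, among the 12 that fell, the ES arrays split in pairs, 1 and 2 against 3 and 4. PPARGC1B, a coactivator of respiratory genes, differed most. It was at 8.07, 8.24, 7.66 and 7.47 in 2-week EBs and at 8.95, 8.87, 9.85 and 9.82 in ES cells, without overlap, at -1.51 (SE 0.23, adjusted p = 6.01e-05), and its 1-week difference of -0.46 did not pass (adjusted p = 0.104). ES arrays 3 and 4 lay above ES arrays 1 and 2, and 2-week arrays 3 and 4 under 2-week arrays 1 and 2. The size of the PPARGC1B fall thus depends on which arrays are compared. PPARGC1A, its better known relative, was detected on 4 of 4 ES arrays, 1 of 4 1-week arrays and 0 of 4 2-week arrays. It thus passed the detection filter through the ES cells. It was at 7.59, 7.80, 7.79 and 7.93 in ES cells, at 6.74, 6.77, 6.69 and 6.94 in 1-week EBs, and at 6.82, 7.22, 6.60 and 6.71 in 2-week EBs. Against the detection floor it was at least 1.80-fold lower at 2 weeks (adjusted p = 1.4e-05). At 1 week its fitted difference was -0.99 (adjusted p = 1.31e-05), a size that rests on 3 of 4 arrays without detection. PPARGC1A is counted among the 12 and the 7 that fell, but its calls are no independent support for a fall. NRF1 itself was not detected on enough arrays to be measured. TFAM, which packages and transcribes mitochondrial DNA, differed by 0.14 (SE 0.089, adjusted p = 0.1797) at 2 weeks and 0.21 (adjusted p = 0.0669) at 1 week.

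**Figure D5:**
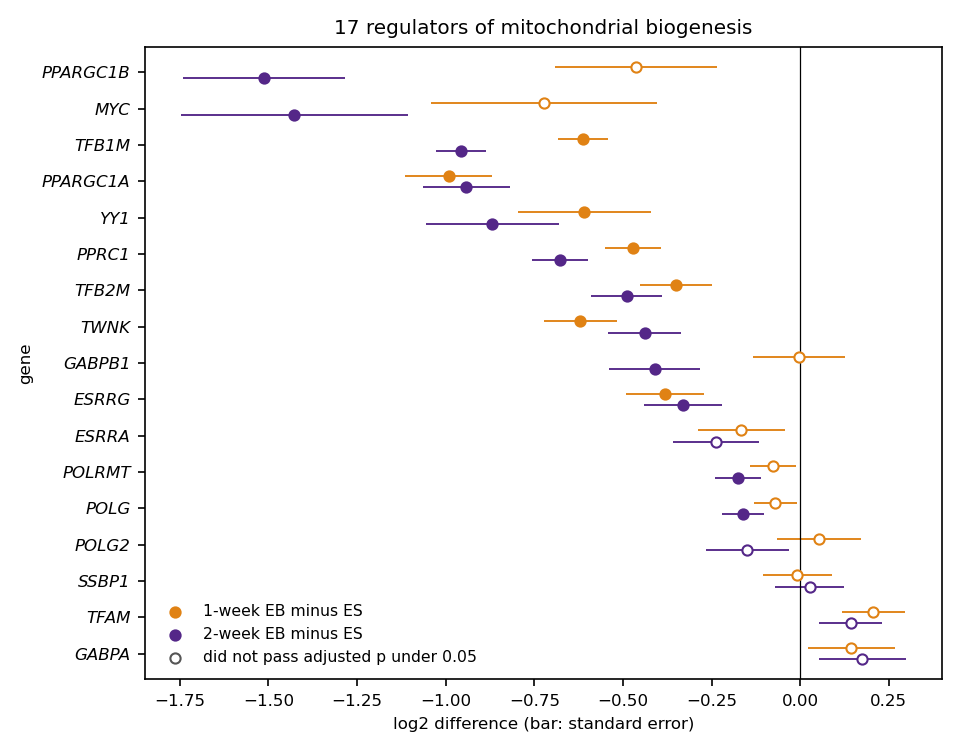
Log2 difference from ES cells (horizontal axis, bars show 1 standard error) of the 17 measured regulators of mitochondrial biogenesis in 1-week and 2-week EBs; filled points passed an adjusted p under 0.05. The 12 filled 2-week points and the 7 filled 1-week points all lie left of 0, and TFAM and GABPA lie right of it unfilled at both times. PPARGC1A is drawn at its fitted value although it was not detected in 2-week EBs.

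Of 36 measured assembly factors and subunits whose names fall outside the rule, 8 rose and 10 fell at 2 weeks (median -0.11), against 30.7% and 31.8% of all genes, and 3 rose and 9 fell at 1 week (median -0.03), against 27.1% and 24.8%. With equal medians 4 rose and 9 fell at 2 weeks, and 6 rose and 4 fell at 1 week. The balance of directions thus moved with the scaling. Of all genes, 27.2% were then higher and 25.4% lower at 2 weeks, and 31.1% and 13% at 1 week. CMC1, a factor of complex IV assembly, differed most, at 9.31, 9.25, 9.38 and 9.18 in 2-week EBs and at 10.38, 10.28, 10.19 and 10.06 in ES cells, without overlap (-0.95, SE 0.080, adjusted p = 1.66e-07). CYC1, the cytochrome of complex III, and CYCS, cytochrome c, had 2-week differences of -0.14 (adjusted p = 0.129) and -0.08 (adjusted p = 0.477). Of 11 measured citric acid cycle genes, 3 rose and 2 fell at 2 weeks (median -0.08), and 2 rose and 0 fell at 1 week (median 0.07), beside the same shares of all genes. SUCLG1, a subunit of succinyl-CoA synthetase, differed most, at 11.21, 11.33, 11.22 and 11.21 in 2-week EBs and at 10.94, 10.72, 10.58 and 10.67 in ES cells, without overlap (0.52, SE 0.078, adjusted p = 6.01e-05). The call held under both other scalings.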

How the data were processed

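RNA from 12 samples was hybridised to Illumina HumanWG-6 v3 bead arrays. The authors deposited, per the file headers, 1 table of probe signal intensity that was not normalized, with a detection p-value per probe, and a series matrix of processed log2 values whose normalization is not given in the sources used here. Detection p-values move in steps of 1 in 759.

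Intensities were background-corrected with negative probes inferred from the detection p-values, quantile-normalized and moved to log2 with an offset of 16 (neqc, limma 3.58.1, R 4.3.3). Of 48803 probes, 15921 had a detection p under 0.01 on at least 4 arrays and were kept. The probe with the highest mean stood for a gene, and 25 members had several. Of all probes, 27578 had 1 gene symbol, 13 had several and 21212 had none. One linear model over the 12 arrays (lmFit, eBayes, prior degrees of freedom 4.31) gave 3 comparisons, with Benjamini-Hochberg adjustment over 10562 genes, and was tested on simulated data. Where all 4 arrays of a group missed a gene, a bound was set by the lowest detected signal of each array (6.67 to 7.28 on the log2 scale). Sequences are RefSeq's, and figures were drawn with matplotlib 3.10.9 (Python 3.11.15, pandas 2.3.3).

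Members and lists were chosen with earlier results of these data known. Named members were those called at 2-fold, the 2 largest called rises and falls of each complex at 2 weeks, paralogs and core subunits, and, of each list, the gene with the largest called difference plus PPARGC1A, NRF1, TFAM, CYC1 and CYCS. Others are said to be picked later. The alternatives tried were other scalings, filters, probe rules, left-out arrays and a replicate block. Same-numbered ES and 1-week arrays deviated together in all 4 pairs (r = 0.14 to 0.24), so their numbers counted as pairs. This is only a hint from the data, since no label gives a shared culture. ES arrays 1 and 3 matched the 1-week array of their own number best, but ES arrays 2 and 4 matched 1-week arrays 1 and 3. Pairing by number therefore cannot be told apart from the likeness of arrays 1 with 2 and 3 with 4. Same-numbered 2-week arrays gave r = -0.04 to 0.06 with ES and -0.09 to 0.14 with 1-week arrays and did not count as pairs.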

Additional observations from a re-analysis of the deposited data

Results flagged for a closer look

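In 31 named members, or 93 groups of 4 arrays, 9 arrays stood far from the other 3 of their group, where chance gives about 1 in 20 groups (4.7 here). Of these, 3 were the second 2-week array: NDUFV1 at 10.64 (others 11.40 to 11.42), ATP5F1B at 14.83 (others 15.45 to 15.47) and NDUFAF3 at 11.33 (others 11.85 to 11.90). In ES cells, NDUFV1 was at 11.62 on array 2 (others 11.36 to 11.37) and UQCRB at 11.32 on array 1 (others 11.23 to 11.24). UQCRB was at 11.004 on 2-week array 3 (others 11.06). In 1-week EBs, SDHAF4 was at 9.0045 on array 4 (others 9.08 to 9.10), ATP5MC2 at 13.68 on array 3 (others 13.85 to 13.88) and NDUFS1 at 9.13 on array 1 (others 9.25 to 9.26).

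The difference from ES cells itself differed between 2 weeks and 1 week for 8 named members, by limma's test of the 2 EB groups, in which the ES cells cancel. The second week was lower for NDUFAF7 (-0.48, adjusted p = 0.00857), ATP5MC1 (-0.27, adjusted p = 0.0299), COX5A (-0.26, adjusted p = 0.0152) and SDHA (-0.23, adjusted p = 0.037). It was higher for COX7A1 (0.57, adjusted p = 0.0431), ATP5MJ (0.30, adjusted p = 0.00976), ATP5F1E (0.29, adjusted p = 0.0235) and UQCR11 (0.25, adjusted p = 0.0263). Of the 8, all but NDUFAF7, COX5A and ATP5MJ lost the call in at least 1 fit that left out an array.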

How the results depend on the processing

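Counts below are members called higher and lower, in the order 2-week EBs against ES cells, 1-week EBs against ES cells, and 2-week against 1-week EBs, where 9 and 27, 2 and 26, and 7 and 7 were reported. With arrays scaled to equal medians they were 2 and 31, 2 and 13, and 1 and 7, and 2 members were called at 2-fold. Shares of all genes were then 27.2% and 25.4%, 31.1% and 13%, and 4.57% and 14%. In the series matrix the counts were 5 and 10, 0 and 12, and 1 and 0, with 0 at 2-fold. The all-gene shares there were 22.8% and 17.7%, 14.1% and 11.4%, and 4.88% and 2.5%. With array pairs averaged, which leaves 2 values per group, the counts were 3 and 15, 0 and 9, and 0 and 0. The all-gene shares were 21.4% and 21.1%, 16.1% and 13.4%, and 2.56% and 2.96%. The mean of a gene's probes gave 4 higher at 1 week, against 27.3% of all genes. A filter for detection on all 12 arrays, which leaves COX6B2 out, gave 1 higher at 1 week, against 24.4% of all genes. That filter gave 0 at 2-fold, and no background correction gave 0 at 2-fold. The column of 2-week array 2 in the series matrix correlated at 0.938 with its own log2 signal, against at least 0.998 in the other columns, so the matrix was also run without it, a choice made after seeing the data. This gave 9 and 24, 4 and 22, and 4 and 3, with 0 at 2-fold. Over all genes the shares were 28.1% and 28.3%, 25.2% and 23.5%, and 8.83% and 9.74%. Leaving out each array gave 6 to 11 higher and 26 to 28 lower at 2 weeks, and 1 to 3 and 21 to 27 at 1 week. Between the weeks it gave 2 to 8 and 3 to 8, and 1 to 2 members were called at 2-fold. The shares of all genes were 28.5% to 30.8% higher and 29.8% to 31.5% lower at 2 weeks. At 1 week they were 24.4% to 28.5% and 22.1% to 26.1%, and between the weeks 9.66% to 12.6% and 11.1% to 14.5%. The causes were not tested.

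With equal medians the medians at 2 weeks were -0.27 for complex I, -0.21 for complex IV and -0.14 for complex V. At 1 week they were 0.074 for complex II, -0.18 for complex IV, -0.073 for complex V and 0.072 for assembly and regulation. Between the weeks they were -0.12, -0.23, -0.058 and -0.019 for complexes I to IV and -0.089 for assembly and regulation. In the series matrix they were 0.0035 for complex II and 0.12 for complex III at 2 weeks, and 0.045 for complex II, 0.15 for complex III and -0.075 for assembly and regulation between the weeks. Without 2-week array 2 the matrix gave -0.11 for complex IV and 0.13 for complex V at 2 weeks. The mean of a gene's probes gave 0.035 for complex III at 2 weeks, and the all-array filter gave -0.078 for complex IV at 1 week. Leaving out each array put complex III at 2 weeks between -0.073 and 0.026 and complex IV between -0.10 and -0.017. Complex III turned sign without ES array 3 or ES array 4. The named members that turned sign were NDUFAF3 (-0.17) and ATP5MC2 (-0.48), both at 2 weeks in the series matrix, and both among the 10 members more than 1 log2 unit low in its column of 2-week array 2. Without that column they were 0.47 and 0.32.

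With the replicate number as a block the counts were 9 and 28, 2 and 24, and 6 and 5. The shares of all genes were 30.8% and 32.2%, 27.3% and 25.5%, and 12.6% and 13.9%. At 1 week, where the numbers counted as pairs, NDUFA8 (adjusted p = 0.0665) and ATP5MF (adjusted p = 0.0685) lost their calls, and no other member called there did. Fits on only the 2 groups compared gave 7 and 26, 2 and 26, and 7 and 8. The shares of all genes were 29.1% and 30.2%, 26.7% and 24.6%, and 13.6% and 15.8%. The chip as a block was not run, since no chip is named in the sources used here. Members near the detection floor, COX6B2, COX7A1 and COX11 among them, are the least certain in size.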
